A study of Mus musculus with 71 samples.

Results

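Terminal whole blood of HOCl-induced mice that received the D11 monoclonal antibody (mAb) was compared with blood of HOCl-induced mice that received no antibody. The D11 samples were those whose column names join HOCL and D11, and the untreated samples those that join HOCL and none, which gave 12 and 12 mice, or 24 of the 71 mice of the series. The deposited table of variance-stabilised values (vst, a log2-like scale) holds 23 of these mice, since HOCl mouse 8 has counts only, so that the HOCl group comprised 11 mice wherever vst values were used and 12 mice wherever counts were used. Both tables were tested across all genes.

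All mice were female Balb/c AnNRj mice. Both groups received intradermal hypochlorous acid (HOCl), an oxidant that brings on skin and lung fibrosis and autoimmunity and serves as a model of systemic sclerosis, on 5 days per week for 6 weeks. D11, in human IgG1 format, binds the carbohydrate recognition domain of galectin-3 (Gal-3) of human and mouse, and it was injected subcutaneously in the D11 group only. The labels give the HOCl mice the treatment "none" and name no isotype control antibody, and the groups were kept in separate cages, so that binding to Gal-3, an injected human antibody and the cage cannot be told apart. The series further holds 11 control mice that received PBS, whose labels name them CTRL in the title but carry the genotype tag HOCL as the other mice do, and 12 mice each labelled E07, D06 and BPR21, all on HOCl. Nothing says which mice were litter mates, and p-values measure the spread between single mice.

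Gal-3 is a lectin that binds beta-galactosides on glycoproteins, is made in quantity by macrophages and monocytes, and takes part in inflammation, cell adhesion and fibrosis. Whole blood RNA mixes neutrophils, eosinophils, monocytes, lymphocytes, platelets and young red cells, and the globin depletion used here removes most but not all of the globin RNA. A gene of 1 cell type can therefore be lower in blood because fewer cells of that type circulate or because each holds less of its RNA, and in these bulk samples the 2 cannot be told apart.

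Total counts of the 24 libraries ranged from 11932855 to 15222080. D11 mice 3 and 10 stood apart, with 1.56% and 3.44% of their counts on globin genes, against at most 0.352% in the other D11 and HOCl mice, and D11 mouse 10 also held the lowest number of detected genes (13875) and the highest level of Alb, the liver's albumin (207 CPM, the count scaled to library size, against a median of 0.218). HOCl mouse 7 had the highest share of counts on erythroid genes (22.8%). Of the 14 genes chosen as markers of other tissues, Pecam1, which platelets also express, had a median of 167 CPM, and the other 13 had medians of at most 0.789 CPM. The number of genes that passed is therefore also given without D11 mice 3 and 10, a choice made after the data were seen.

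Few genes differed. On the vst values, 3 genes were higher and 3 lower in D11 than in HOCl mice, out of 10508 genes, by limma with a false discovery rate (FDR, Benjamini-Hochberg) no higher than 0.05 and a change of 1.3-fold or more, which is 0.0285% of the genes in each direction. The genes that fell were App, Psmd2 and Scarb1, and those that rose were Mat2a, Ostc and Ccr3. On the counts of all 12 HOCl mice, edgeR's quasi-likelihood test at the same thresholds put 12 genes higher (0.0953% of 12587) and 22 lower (0.175%), and all 6 genes of the vst test were among these 34. At an unadjusted p under 0.05, 702 genes were higher (6.68%) and 781 lower (7.43%) on the vst values, and 756 higher (6.01%) and 966 lower (7.67%) on the counts. This balance turned when counts were scaled by the library total alone, with 863 higher and 323 lower by edgeR and 572 higher and 263 lower by limma on log2 of CPM plus 1, and the middle gene then lay at 0.10 and 0.09 on the log2 scale. Without D11 mice 3 and 10, set aside for their globin RNA, the number that passed rose to 129 on the vst values (49 higher, 80 lower) and to 253 on the counts (107 higher, 146 lower).

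**Figure D1:**
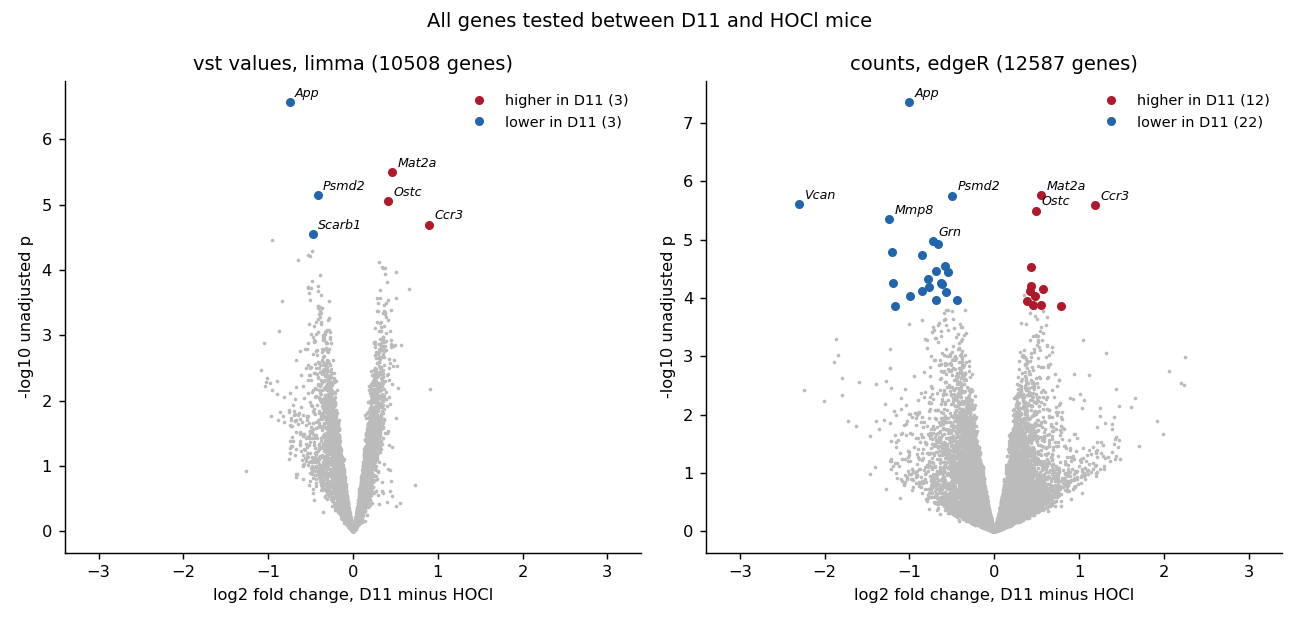
Log2 fold change (D11 minus HOCl, x axis) against −log10 of the unadjusted p (y axis) for every gene tested, on vst values with limma (left, 10508 genes) and on counts with edgeR (right, 12587 genes). Coloured points passed both thresholds, 3 higher and 3 lower on the left and 12 higher and 22 lower on the right, and App stands at the top of both panels.

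The 250 bases before the RefSeq start of 4 genes that recur in the results are printed here (build GRCm38.p6, strand of the gene, 5′ to 3′). App had the smallest p, and Ccr3 the largest rise of the genes that passed on vst values. Mmp8 and Lcn2 are neutrophil granule genes that fell on the counts. Capitals mark letters found on either strand, the GC box GGGCGG in App, the GATA letters AGATAA in Ccr3, and the C/EBP letters TTNNGNAA in Mmp8 and Lcn2. Of 32851 mouse promoter windows of this length, 32.7% hold the GC box, 9.99% the GATA letters and 36.8% the C/EBP letters, so these matches describe the windows and no more. The App window (chr16:85173708-85173957, minus strand) is 70.8% G or C, and that of Ccr3 (chr9:124021721-124021970, plus strand) is 40.4%. The Mmp8 window (chr9:7558179-7558428, plus strand) holds the C/EBP letters at 2 places and the Lcn2 window (chr2:32387740-32387989, minus strand) at 1.
App: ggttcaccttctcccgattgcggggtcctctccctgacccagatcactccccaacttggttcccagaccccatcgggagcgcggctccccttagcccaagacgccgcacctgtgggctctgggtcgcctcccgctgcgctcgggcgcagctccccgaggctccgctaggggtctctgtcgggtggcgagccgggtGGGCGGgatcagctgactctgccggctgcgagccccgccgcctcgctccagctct
Ccr3: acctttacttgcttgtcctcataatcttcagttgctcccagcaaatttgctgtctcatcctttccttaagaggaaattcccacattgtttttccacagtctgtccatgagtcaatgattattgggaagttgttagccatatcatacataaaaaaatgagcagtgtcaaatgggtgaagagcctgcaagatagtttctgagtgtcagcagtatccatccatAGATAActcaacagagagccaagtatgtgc
Mmp8: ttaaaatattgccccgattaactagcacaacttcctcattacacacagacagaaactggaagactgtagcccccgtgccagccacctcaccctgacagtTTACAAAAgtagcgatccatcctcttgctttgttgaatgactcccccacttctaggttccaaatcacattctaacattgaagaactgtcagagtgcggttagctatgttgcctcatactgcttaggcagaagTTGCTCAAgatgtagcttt
Lcn2: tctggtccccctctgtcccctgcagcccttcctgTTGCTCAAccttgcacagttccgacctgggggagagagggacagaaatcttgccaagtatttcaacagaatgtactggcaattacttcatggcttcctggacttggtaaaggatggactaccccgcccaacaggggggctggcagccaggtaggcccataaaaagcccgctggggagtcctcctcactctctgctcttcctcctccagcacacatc

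App, which encodes the amyloid precursor protein, a membrane glycoprotein that secretases cleave and that the study lists among the partners of Gal-3, showed the smallest p in both tables. App (ENSMUSG00000022892, chr16:84746573-84971126 on GRCm39, minus strand) ranged from 8.12 to 8.94 (median 8.65) in D11 mice and from 8.77 to 9.65 (median 9.28) in HOCl mice on the vst scale. All 12 D11 mice lay below the median of HOCl mice and 10 below every HOCl mouse, so the groups barely overlapped. The log2 fold change was −0.75 ± 0.11 (SE; limma, FDR = 0.00287), and on counts it was −1.01 (edgeR, FDR = 0.000566), with a median of 20.4 CPM in D11 and 38.7 CPM in HOCl mice. Control mice ranged from 8.37 to 9.88 (median 8.99), and D11 mice were 0.43 below them on the log2 scale, which did not pass (FDR = 0.123). Of the 14 measured genes of the APP family and its processing App alone passed, with a median log2 fold change of −0.12 over the list against −0.0023 over all genes. Sorl1, a sorting receptor for APP (−0.27), Aplp2, its paralog (−0.20) and the secretase subunit Ncstn (−0.18) had adjusted p of at least 0.336.

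Psmd2, a subunit of the regulatory particle of the proteasome, separated the groups fully. Psmd2 (ENSMUSG00000006998, chr16:20470346-20485708, plus strand) ranged from 9.36 to 9.83 (median 9.73) in D11 and from 9.87 to 10.32 (median 10.06) in HOCl mice, so that all 12 D11 mice lay below every HOCl mouse. On the log2 scale the difference was −0.42 ± 0.08 (SE; limma, FDR = 0.0231), and Psmd2 was higher by 0.36 in HOCl than in control mice (FDR = 0.0163, but under the 1.3-fold threshold), whose median was 9.73, equal to that of D11 mice. No other proteasome gene passed. Of 48 measured genes 27 had a positive and 21 a negative log2 fold change and the median was 0.010. Psma4, a subunit of the core particle (0.28, FDR = 0.194), and Psmd13, of the same particle as Psmd2 (0.20, FDR = 0.300), had positive values.

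Scarb1, the receptor that takes up cholesterol esters from high-density lipoprotein, also fell. Scarb1 (ENSMUSG00000037936, chr5:125353547-125418176, minus strand) ranged from 7.89 to 8.82 (median 8.56) in D11 and from 8.72 to 9.19 (median 8.96) in HOCl mice, and 9 D11 mice lay below every HOCl mouse. The log2 fold change was −0.47 ± 0.09 (SE; limma, FDR = 0.0497). This FDR lay next to the threshold, and Scarb1 passed in 11 of the 23 fits that left out 1 mouse on the vst values and in 23 of 24 on the counts. Among the 25 measured genes of cholesterol synthesis and lipoprotein uptake the median was 0.0063. Abcg1, which exports cholesterol, had a log2 fold change of −0.26 (FDR = 0.182), and the synthesis genes Dhcr7 (0.29, FDR = 0.264) and Idi1 (0.35, FDR = 0.268) had positive values without passing.

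Mat2a, the enzyme that makes S-adenosylmethionine in most cells outside the liver, rose. Mat2a (ENSMUSG00000053907, chr6:72409779-72416684, minus strand) ranged from 10.03 to 10.61 (median 10.32) in D11 and from 9.46 to 10.04 (median 9.91) in HOCl mice, and 11 D11 mice lay above every HOCl mouse. D11 mice were higher by 0.46 ± 0.08 on the log2 scale (SE; limma, FDR = 0.0168), and Mat2a passed in all 23 and all 24 fits that left out 1 mouse. The other 15 measured genes of the methionine cycle did not pass. Mettl16, which methylates the Mat2a transcript, had a log2 fold change of 0.17 (FDR = 0.470), and Ahcy, which clears S-adenosylhomocysteine, one of −0.18 (FDR = 0.515).

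Ostc, a subunit of the oligosaccharyltransferase that transfers glycans to asparagine in the endoplasmic reticulum, rose as well. Ostc (ENSMUSG00000041084, chr3:130489561-130503095, minus strand) ranged from 9.50 to 10.04 (median 9.73) in D11 and from 8.91 to 9.46 (median 9.35) in HOCl mice, and all 12 D11 mice lay above every HOCl mouse. D11 minus HOCl was 0.42 ± 0.08 on the log2 scale (SE; limma, FDR = 0.0231). Of the 20 measured genes of this enzyme and of N-glycosylation 1 passed, and 15 had a positive log2 fold change (median 0.076). Stt3b, a catalytic subunit (0.19, FDR = 0.264), and Mgat2, which builds complex glycans (0.22, FDR = 0.268), were positive, while the subunit Rpn2 was negative (−0.22, FDR = 0.262). On counts, C1galt1, the galactosyltransferase that makes the core 1 O-glycan, also rose (0.43, edgeR FDR = 0.0284), and its chaperone C1galt1c1 gave 0.57 (FDR = 0.0518). Both encode parts of the pathway that adds galactose to O-glycans.

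Ccr3, the eotaxin receptor of eosinophils, showed the largest rise of the 6 genes. Ccr3 (ENSMUSG00000035448, chr9:123822009-123831726, plus strand) ranged from 8.45 to 10.46 (median 9.89) in D11 and from 8.41 to 9.48 (median 8.98) in HOCl mice. Of the D11 mice 10 lay above every HOCl mouse, while mouse 3 lay at 8.45, near the bottom of the HOCl range. The log2 fold change was 0.90 ± 0.17 (SE; limma, FDR = 0.0423) and 1.19 on counts (edgeR, FDR = 0.00651), with medians of 60.3 CPM in D11 and 26.2 CPM in HOCl mice. Ccr3 passed in 11 of the 23 fits that left out 1 mouse on the vst values and in all 24 on the counts.

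**Figure D2:**
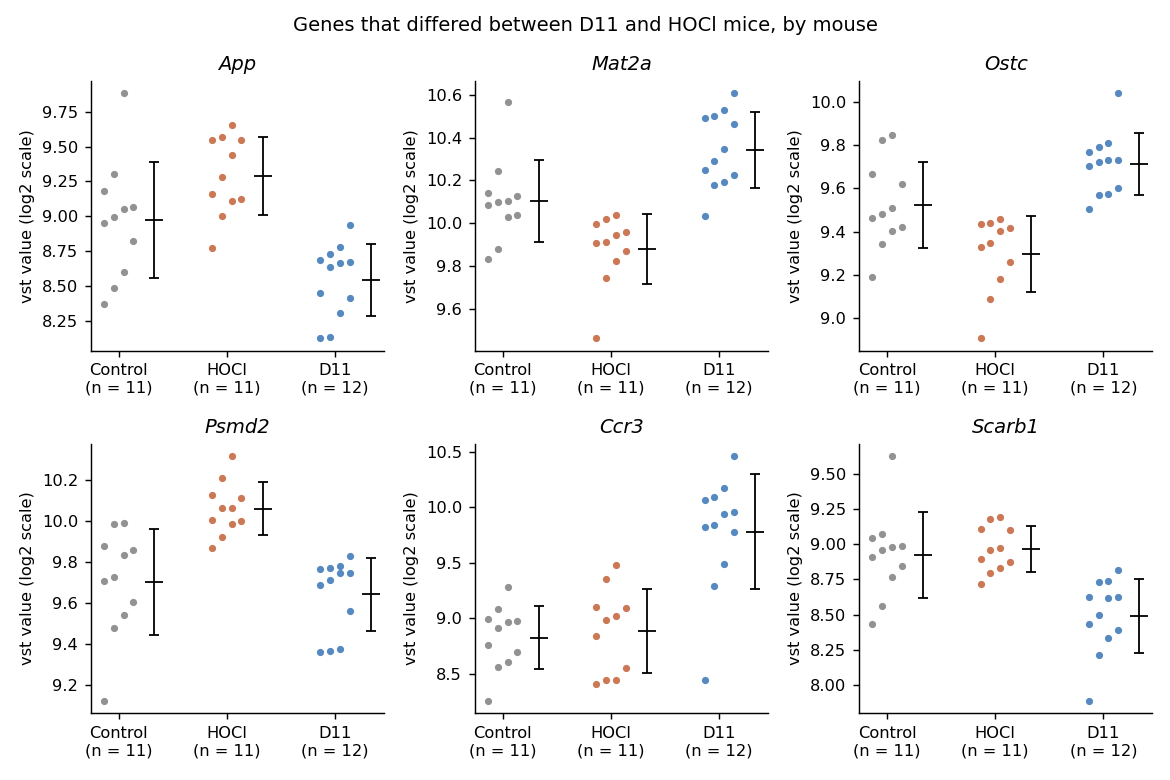
The vst value (y axis, log2 scale) of each control, HOCl and D11 mouse for the 6 genes that passed both thresholds between D11 and HOCl mice, with the mean and SD beside each group of 11, 11 and 12 mice. D11 and HOCl mice do not overlap for Psmd2 and Ostc, and a single D11 mouse stands at 8.45 for Ccr3.

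The other eosinophil genes pointed the same way as Ccr3 without passing. All 9 measured members of the eosinophil list had a positive log2 fold change (median 0.32), 6 had an unadjusted p under 0.05 against the 6.68% of all genes named above, and 1 passed. Alox15, a lipoxygenase abundant in eosinophils, ranged from 8.79 to 9.97 (median 9.43) in D11 and from 8.02 to 9.78 (median 8.75) in HOCl mice, with all 12 D11 mice above the HOCl median (log2 fold change 0.53, FDR = 0.191). Il5ra, the receptor chain for IL-5, the growth factor of eosinophils, gave 0.36 (FDR = 0.215), and Siglecf, a lectin of their surface, 0.26 (FDR = 0.277). The ribonuclease gene Ear6 gave 0.52 (FDR = 0.159), though reads of the nearly identical Ear genes may be split between copies. The granule protein genes Prg3 and Prg2 gave 0.32 (FDR = 0.243) and 0.062 (p = 0.700). Summed over the 10 genes of the list, the level was 114 to 245 CPM (median 178) in D11 mice, 70.1 to 153 CPM (median 89.4) in HOCl mice and 77.6 to 159 CPM (median 98.5) in control mice. In the other treated groups the median was 231 CPM in D06, 140 CPM in E07 and 107 CPM in BPR21 mice, so a raised level was not particular to D11. D11 mouse 3 held the lowest sum of its group.

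Of the neutrophil genes, 2 of the granules fell on the counts. Mmp8, the collagenase of neutrophil granules, ranged from 27.9 to 55.1 CPM (median 39.6) in D11 and from 50.3 to 285 CPM (median 69.4) in HOCl mice, and 11 D11 mice lay below every HOCl mouse. Its log2 fold change was −1.24 on counts (edgeR, FDR = 0.00813) and −0.95 ± 0.19 (SE) on vst values, where it just missed the threshold (limma, FDR = 0.0514). Lcn2, or lipocalin 2, which binds bacterial siderophores, ranged from 30.3 to 82.0 CPM (median 53.4) in D11 and from 56.6 to 363 CPM (median 86.5) in HOCl mice, and 8 D11 mice lay below every HOCl mouse. The change was −1.19 on counts (edgeR, FDR = 0.0376) and −0.88 on vst values (limma, FDR = 0.115). The highest HOCl mouse for both genes was mouse 7, and without it the changes were −0.95 (FDR = 0.00536) for Mmp8 and −0.93 (FDR = 0.0405) for Lcn2, which passed in 12 of the 24 fits that left out 1 mouse.

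Of the 18 measured neutrophil genes 17 had a negative log2 fold change on vst values (median −0.34). At an unadjusted p under 0.05, 8 were lower and 1 higher, against 7.43% and 6.68% of all genes. On counts 11 were lower and 1 higher, against 7.67% and 6.01%, with 2 passing. Summed over 20 genes, the level was 3565 to 6052 CPM (median 4894) in D11 and 3570 to 14775 CPM (median 5436) in HOCl mice, where mouse 7 was the highest. In control mice it was 2966 to 10549 CPM (median 4732). Ngp (−0.88, FDR = 0.273), Ltf, the iron-binding lactoferrin (−0.45), and Camp, the cathelicidin (−0.36), belong to the same granules as Lcn2. The exception was Retnlg, a resistin-like gene of neutrophils, with a log2 fold change of 0.51 (FDR = 0.268) and all 12 D11 mice above the HOCl median. Lrg1, a secreted glycoprotein also stored in neutrophil granules, fell by 1.21 on the log2 scale on counts (edgeR, FDR = 0.0209), from a median of 95.6 CPM in HOCl to 45.3 CPM in D11 mice.

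Monocyte and macrophage genes had mostly negative values. Cx3cr1, the fractalkine receptor of patrolling monocytes, was the member of the monocyte list that passed, on counts (log2 fold change −0.77, edgeR FDR = 0.0396), and all 12 D11 mice lay below the HOCl median on vst values although none lay below every HOCl mouse. Of the 16 measured monocyte genes 15 had a negative log2 fold change on vst values (median −0.24), with 8 lower at an unadjusted p under 0.05 against 7.43% of all genes, and on counts 10 against 7.67%. Csf1r, the receptor for macrophage colony-stimulating factor, gave −0.53 (FDR = 0.121), Cd68, a lysosomal protein of macrophages and a listed Gal-3 partner, −0.35 (FDR = 0.117), and F13a1, a clotting factor subunit, −0.50 (FDR = 0.179). Summed over 16 genes the monocyte level was 2636 to 4672 CPM (median 3907) in D11 and 3120 to 4995 CPM (median 4451) in HOCl mice.

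**Figure D3:**
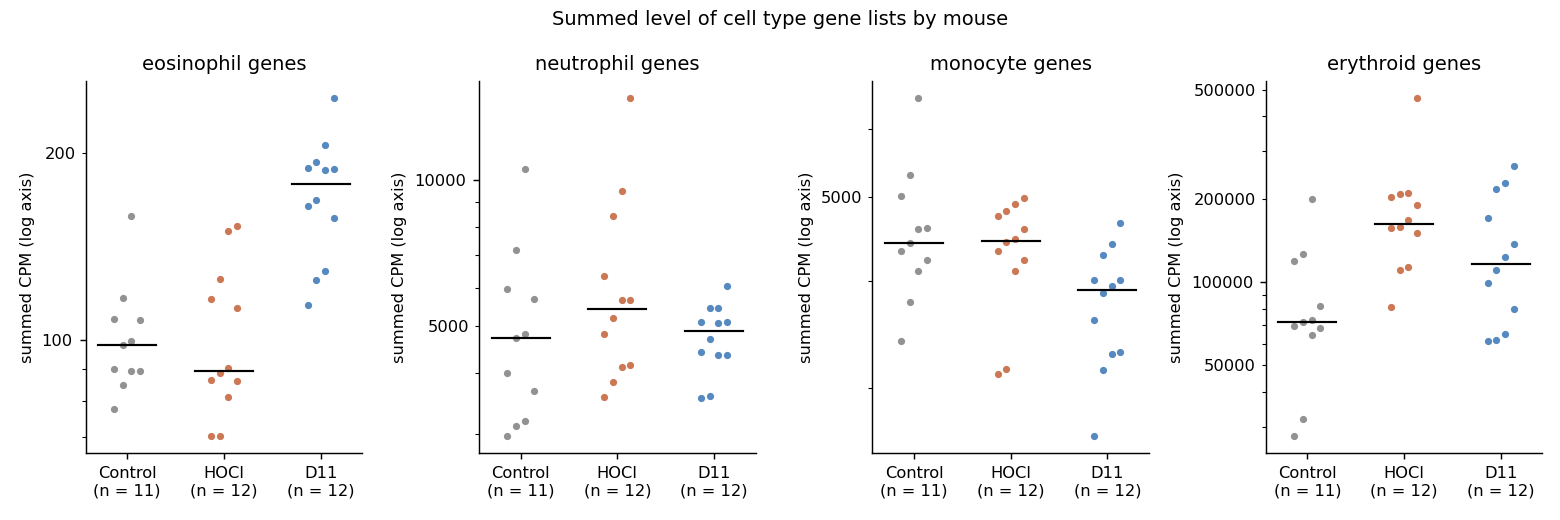
Summed CPM (TMM factors, log axis) of the eosinophil, neutrophil, monocyte and erythroid gene lists in each control (n = 11), HOCl (n = 12) and D11 mouse (n = 12), with a line at the median. The eosinophil medians were 178 CPM in D11 and 89.4 CPM in HOCl mice, and the groups overlap in every panel.

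Vcan showed the largest fold change of the 34 genes on counts. Versican, a large proteoglycan of the extracellular matrix, is made by classical monocytes in blood, and the gene is absent from the vst table. Vcan (ENSMUSG00000021614, chr13:89803431-89890814, minus strand) ranged from 0 to 2.58 CPM (median 1.39) in D11 and from 1.67 to 12.3 CPM (median 6.75) in HOCl mice, with 0 to 43 counts in the former and 19 to 150 in the latter. Of the D11 mice 7 lay below every HOCl mouse. edgeR gave a log2 fold change of −2.30 (FDR = 0.00651), and it passed in all 24 fits that left out 1 mouse.

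Further genes fell on counts. Grn, or progranulin, a lysosomal glycoprotein of myeloid cells (−0.72, FDR = 0.0169), and Psap, the precursor of the saposins that help to degrade sphingolipids (−0.54, FDR = 0.0303), fell, as did Slc29a3, a nucleoside transporter of lysosomes (−0.78, FDR = 0.0370), and Atp6v1b2, a subunit of the proton pump that acidifies them (−0.44, FDR = 0.0453). Grn ranged from 19.4 to 44.4 CPM (median 26.9) in D11 and from 31.5 to 62.7 CPM (median 44.2) in HOCl mice. Grn, Psap and Atp6v1b2 fall outside the rule for named genes and were chosen after their values were seen. C3, the central complement component, fell by 0.99 on the log2 scale (FDR = 0.0424) and F10, clotting factor X, by 0.85 (FDR = 0.0397), as did Tcn2, which carries vitamin B12, by 0.61 (FDR = 0.0376, named after its value was seen). C3 ranged from 15.4 to 37.9 CPM in D11 and from 16.5 to 88.5 CPM in HOCl mice, with all 12 D11 mice below the HOCl median of 48.5 CPM. Of the 10 measured complement genes 5 were lower and 1 higher at an unadjusted p under 0.05 on vst values (median −0.24), against 6.68% of all genes higher and 7.43% lower, C3 alone passing on counts. The receptor gene C3ar1 had a positive value of 0.37 (FDR = 0.192), as did Cd55 and Cr1l, which restrain complement.

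Also lower on counts were Hk3, the hexokinase of myeloid cells (−0.68, FDR = 0.0303), Cmip (−0.85, FDR = 0.0209) and Frmd4a (−1.16, FDR = 0.0498), and, named after their values were seen, Pi4ka, a lipid kinase, Iqgap1, a scaffold of the cytoskeleton, the ubiquitin ligase Ube4b and Zswim4, with log2 fold changes between −0.69 and −0.57. Those that rose, beside Ccr3, Mat2a, Ostc and C1galt1, were Ccl6, a chemokine of myeloid cells (0.55, FDR = 0.0498), Ifi47, an interferon-induced GTPase (0.48, FDR = 0.0424), Mterf3, which binds mitochondrial DNA (0.58, FDR = 0.0397), the nuclear matrix gene Matr3 (0.43, FDR = 0.0396), Abracl (0.46, FDR = 0.0498), the long non-coding RNA 6720427I07Rik (0.78, FDR = 0.0498) and 2 seen after their values, Ppil4 (0.39) and the long non-coding RNA Gm20559 (0.42). Ccl6 ranged from 389 to 759 CPM (median 689) in D11 and from 350 to 560 CPM (median 397) in HOCl mice. Without HOCl mouse 7 the genes Atp6v1b2 (FDR = 0.0597), Frmd4a (0.0723), 6720427I07Rik (0.0572), Ppil4 (0.0530) and Gm20559 (0.0523) no longer passed. Calls with an FDR near 0.05 were easily lost, since of the 24 fits that left out 1 mouse Frmd4a passed in 6, Ccl6 in 6, Abracl in 6, 6720427I07Rik in 4, Atp6v1b2 in 7 and C3 in 9. A further gene absent from the vst table, Gm15675, gave 0.52 and missed the threshold (FDR = 0.0731). Of the 2407 genes tested on counts but absent from the vst table, 4 passed, where 34 of all 12587 genes did. Of these 34 genes 32 code for a protein, as do 11133 of the 12587 tested.

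Red cell precursor genes had mostly negative values, but none passed with all mice. Of 36 measured erythroid genes 34 had a negative log2 fold change (median −0.55), and 17 were lower at an unadjusted p under 0.05, against 7.43% of all genes. Slc4a1, the anion exchanger of the red cell membrane, ranged from 11.88 to 15.11 (median 13.46) in D11 and from 12.91 to 16.07 (median 14.57) in HOCl mice, with a log2 fold change of −1.04 ± 0.35 (SE; limma, FDR = 0.185). Ank1 and Sptb, which anchor that exchanger to the cytoskeleton, gave −1.05 (FDR = 0.121) and −1.08 (FDR = 0.166), and Alas2, the first enzyme of heme synthesis in red cells, −0.54 (FDR = 0.357). D11 mouse 3 was the highest of its group for Slc4a1 and for the summed erythroid level. The median of the erythroid list was −0.40 without HOCl mouse 7, the highest of its group, −0.76 without D11 mice 3 and 10 and −0.60 without all 3. Since D11 mice 3 and 10 were set aside for red cell RNA, leaving them out by itself lowers red cell genes in D11, and no test of these genes without them is given. The 5 measured globin genes had a median of 0.50 with all mice and of −0.13 without the pair. HOCl mice themselves were higher than control mice in these genes, by a median of 1.26 with 32 of the 36 passing. Over all 10508 genes, 503 passed as higher and 18 as lower in HOCl than in control mice.

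The interferon-stimulated list had 25 of 29 measured members with a negative log2 fold change (median −0.21), and none passed by limma or by edgeR. At an unadjusted p under 0.05, 7 were lower and 1 higher, against 7.43% and 6.68% of all genes. On counts 10 were lower and 1 higher, against 7.67% and 6.01%. Ifi47, an interferon-induced gene outside this list, rose on counts, as given above. Eif2ak2, the double-stranded RNA sensor, gave −0.42 (FDR = 0.116) and Oas3, which makes 2-5 oligoadenylate, −0.69 (FDR = 0.215). The lowest and the highest mouse of either group was the same for the summed level of this list and of the erythroid list. HOCl mice 1 and 7 were also the lowest and the highest of their group for the proliferation and proteasome lists. The median of the interferon-stimulated list was −0.082 with the erythroid score as a covariate. Whether red cell precursors account for it was not tested.

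Lymphocyte genes showed small differences. Of the 24 measured T cell genes 4 were higher and 1 lower at an unadjusted p under 0.05 (median 0.042), against 6.68% of all genes higher and 7.43% lower, and Cd3g, a chain of the T cell receptor complex, gave 0.37 (FDR = 0.121), or 0.41 without D11 mice 3 and 10, where it passed (FDR = 0.0457). Of the 17 measured plasma cell and immunoglobulin genes 5 were higher and 0 lower at such a p, against the same shares. Jchain, which joins IgM and IgA into polymers, ranged from 9.79 to 10.85 (median 10.32) in D11 and from 9.02 to 10.23 (median 9.88) in HOCl mice, with 8 D11 mice above every HOCl mouse (0.48, FDR = 0.122, and 0.57 without the pair, FDR = 0.0340). Tnfrsf17, the survival receptor BCMA of plasma cells, gave 0.47 (FDR = 0.159), or 0.62 without the pair (FDR = 0.0206). In the fit without D11 mice 3 and 10, 49 of all 10508 genes passed as higher. That pair was left out after the data were seen, for its red cell RNA. A smaller share of that RNA can by itself raise the share of lymphocyte genes in D11, so these passes are no separate support. B cell genes had a median of 0.11, with 14 of the 16 measured members positive. At an unadjusted p under 0.05, 1 was higher, against 6.68% of all genes. NK and cytotoxic (median −0.013), MHC class II (−0.049), dendritic cell (−0.0020) and platelet genes (−0.035) had medians nearer that of all genes (−0.0023). No member of these lists or of the B cell list passed.

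Of the 17 genes of IL-5 and IL-6 receptors and signalling 5 were lower and 1 higher at an unadjusted p under 0.05, against 6.68% of all genes higher and 7.43% lower. Csf2rb, the chain shared by the receptors for IL-3, IL-5 and GM-CSF, gave −0.51 (FDR = 0.104), Stat3 gave −0.35 (FDR = 0.121) and the survival gene Bcl2l1, which red cell precursors also express, −0.89 (FDR = 0.181). Without D11 mice 3 and 10, left out after the data were seen, Csf2rb, Stat3 and Bcl2l1 passed, at −0.56, −0.39 and −1.13. Leaving that pair out by itself lowers genes of red cell precursors in D11. Members of other lists passed in that fit too, among them Cd68, Csf1r and F13a1 of the monocyte list, and Cfp, Fcgrt and G6pdx. Over all 10508 genes that fit put 49 higher and 80 lower, where the fit with all mice put 3 higher and 3 lower. HOCl mouse 7 was kept in it. Passes after such a choice are no separate support for any list. Stat3 lay below every HOCl mouse in 8 D11 mice and above every HOCl mouse in 1.

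Lgals3, which encodes Gal-3 itself, ranged from 10.48 to 11.32 (median 10.83) in D11 and from 10.58 to 11.38 (median 11.09) in HOCl mice. The log2 fold change was −0.22 ± 0.10 (SE), with a 95% interval of −0.43 to −0.0042, and it did not pass (limma, FDR = 0.345). Lgals9, another galectin, gave −0.31 (FDR = 0.235), and the other 5 measured galectin genes ranged from −0.073 to 0.068. Of the 196 measured genes on the list of Gal-3 partners that the study took from databases of human proteins, here matched by symbol to mouse genes, App alone passed, and 12 were higher and 25 lower at an unadjusted p under 0.05 (median −0.030), where 6.68% and 7.43% of all genes had such a p. Several partners are membrane or lysosomal proteins of myeloid cells, such as Cd68 and Colec12, a scavenger receptor (−0.41, FDR = 0.0902), so the list overlaps those above.

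**Figure D4:**
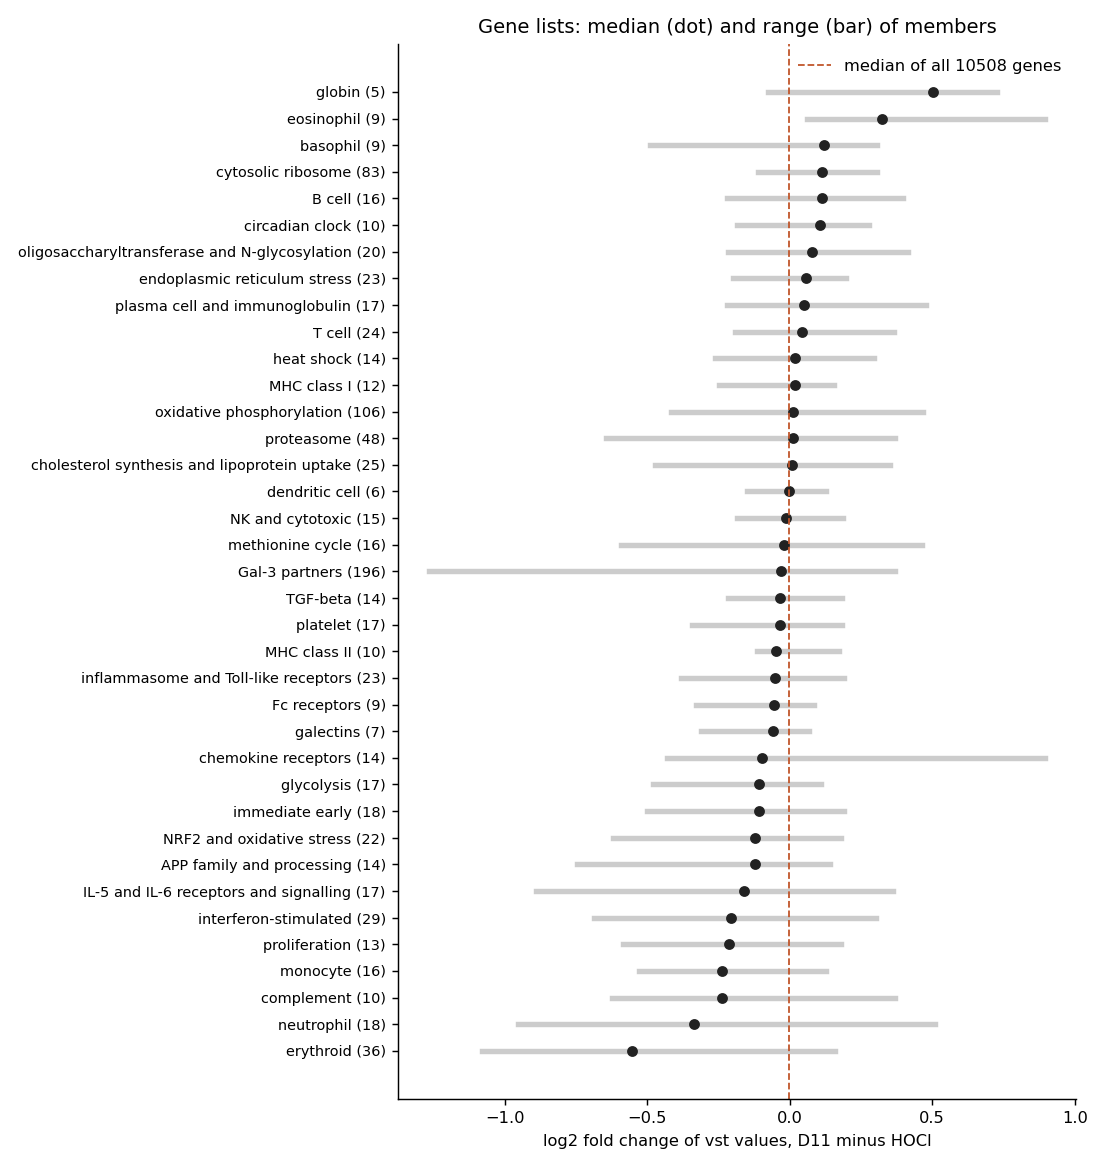
Median (dot) and range from the lowest to the highest member (bar) of the log2 fold change of vst values, D11 minus HOCl, for 37 gene lists, with the number of measured members in brackets and a dashed line at the median of all 10508 genes (−0.0023). The erythroid (−0.55) and neutrophil (−0.34) lists have the lowest medians and the globin (0.50) and eosinophil (0.32) lists the highest, the globin value resting on D11 mice 3 and 10.

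The remaining lists had medians between −0.21 and 0.12. The 83 measured genes of the cytosolic ribosome had a median of 0.11, with 15 higher and 0 lower at an unadjusted p under 0.05 on vst values, against 6.68% of all genes higher. On counts 4 of 87 were higher and 0 lower at such a p, against 6.01% of all genes higher, so counts did not show this excess. Oxidative phosphorylation (106 genes, median 0.013), endoplasmic reticulum stress (0.058), heat shock (0.019) and MHC class I genes (0.019) did not pass in any member. Genes encoded in mitochondria took 7.27% to 11.3% of counts in D11 mice (median 9.66%) and 6.69% to 8.94% in HOCl mice (median 7.72%), and mt-Nd1 gave 0.37 (FDR = 0.109). Glycolysis genes had a median of −0.11 and those of the NRF2 response to oxidants −0.12, where Hmox1, the heme oxygenase, gave −0.40 (FDR = 0.150) and G6pdx, which supplies NADPH, −0.37 (FDR = 0.125). Genes of proliferation (−0.21), immediate early genes (−0.11), Fc receptors (−0.054), Toll-like receptors and the inflammasome (−0.053), TGF-beta (−0.034), the circadian clock (0.11), basophils (0.12) and chemokine receptors (−0.097) had no member that passed on vst values other than Ccr3.

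D11 mice were next compared with the other groups, to see whether the genes that differed from HOCl set D11 apart. These comparisons share the D11 mice, and comparisons with HOCl share the HOCl mice. Against control mice 8 genes passed (0.0761%), all higher in D11, and 1697 had an unadjusted p under 0.05. Ccr3 was 0.95 higher in D11 than in control mice (95% interval 0.62 to 1.29, FDR = 0.0102), with 11 of the 12 D11 mice above every control mouse, and Alox15 was 0.79 higher (0.50 to 1.09, FDR = 0.0166). The HOCl and control groups differed by 0.058 for Ccr3 (FDR = 0.876). The other 6, named after their values were seen, were the potassium channel gene Kcnj5 (0.61), the kinase gene Camk1 (0.69), Ighg1, the heavy chain of IgG1 (0.74), the phospholipase gene Pnpla8 (0.46), Gng11, a G protein subunit abundant in platelets (0.80), and S100a10 (0.58). Ighg1 differed by −0.024 between D11 and HOCl mice (FDR = 0.969). App, Scarb1, Mat2a, Ostc and Psmd2 did not pass against control mice (FDR from 0.106 to 0.817).

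Against the same HOCl mice, the log2 fold change of App was −0.75 in D11, −0.70 in E07, −0.72 in D06 and −0.63 in BPR21 mice. That of Scarb1 was −0.47, −0.52, −0.51 and −0.65 in this order, that of Psmd2 −0.42, −0.35, −0.26 and −0.33, that of Mat2a 0.46, 0.29, 0.45 and 0.56, and that of Ostc 0.42, 0.31, 0.34 and 0.27. Compared directly, D11 and E07 mice differed by −0.047 for App (95% interval −0.25 to 0.16), D11 and D06 mice by −0.031 (−0.32 to 0.26) and D11 and BPR21 mice by −0.11 (−0.43 to 0.20). Ccr3 gave 0.90, 0.67, 1.17 and −0.040 against HOCl, and D11 mice were 0.94 above BPR21 mice (0.52 to 1.35), which did not pass across all genes (FDR = 0.414). None of the 6 genes passed in a direct test of D11 against E07, D06 or BPR21.

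Across all genes D11 and E07 mice differed in 480 genes (4.57%), 449 of them higher in D11, among which were 16 of the 36 erythroid genes (median 0.74) and 13 of 106 genes of oxidative phosphorylation, while 6 of the 10 MHC class II genes and 4 of the 16 B cell genes were lower in D11. This count fell to 64 (55 higher, 9 lower) without D11 mice 3 and 10, and to 0 in a fit of all 6 groups, where 1746 genes had an unadjusted p under 0.05. Between D11 and D06 mice 0 genes passed (0%) by limma, the only tool run for it, with 655 at an unadjusted p under 0.05, and between D11 and BPR21 mice 0 (0%) with 621.

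**Figure D5:**
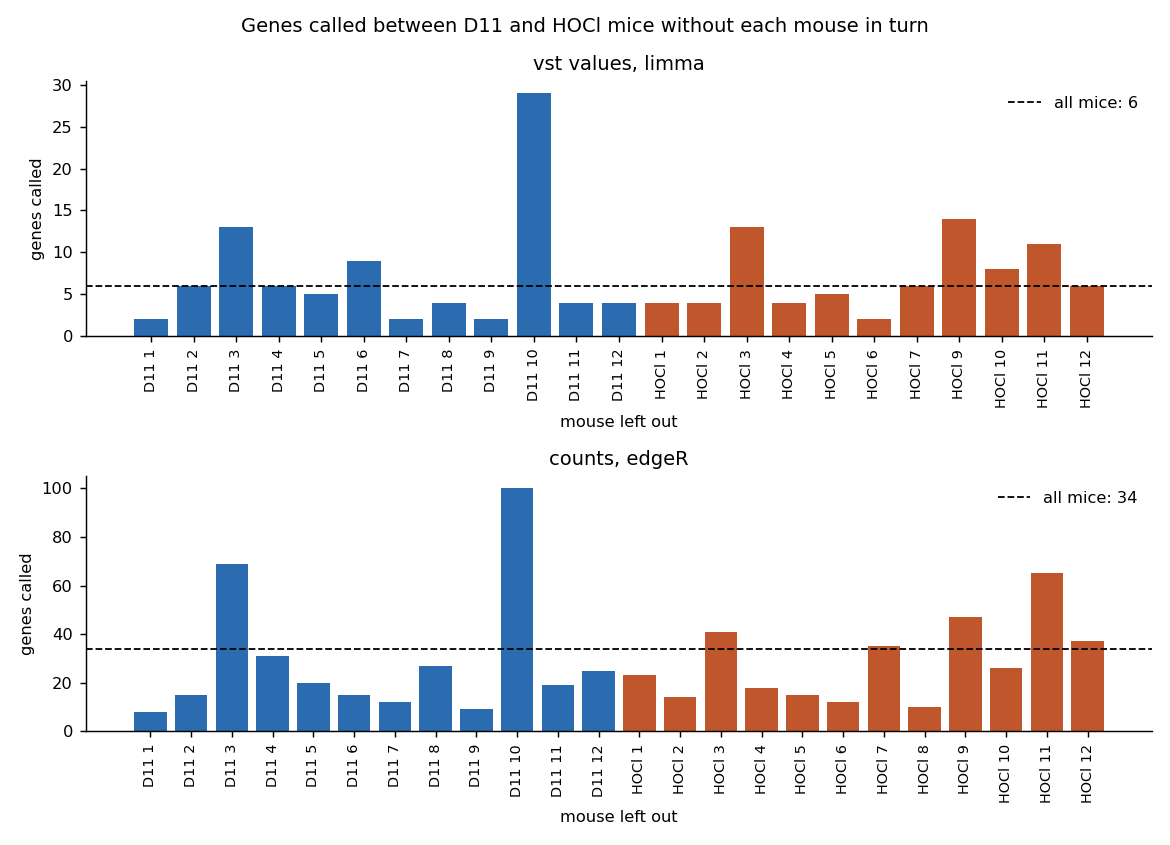
Number of genes that passed both thresholds between D11 and HOCl mice (y axis) when the mouse named on the x axis was left out, on vst values (top) and counts (bottom), with a dashed line at the number with all mice (6 and 34). Leaving out D11 mouse 10 gave 29 and 100 genes, the tallest bar in either panel.

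The log2 of the total count was 23.7 in either group of 12 (D11 minus HOCl −0.045, p = 0.224 by a two-sided permutation test), but without HOCl mouse 8, as in the vst table, D11 minus HOCl was −0.065 (permutation p = 0.0476). The log2 size factor differed by 0.053 in the 24 mice (permutation p = 0.741). The root mean square distance of a mouse from the mean of the others in its group was 0.303 ± 0.088 (SD, n = 12) in D11 and 0.309 ± 0.076 (SD, n = 11) in HOCl mice on the vst scale (permutation test, p = 0.865), and D11 mouse 10 was the farthest of all at 0.547.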

How the data were processed

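RNA of terminal whole blood was sequenced after poly A selection and globin depletion. The authors trimmed reads with Cutadapt, aligned them to mm39 with STAR and counted them with featureCounts (versions not given in the sources used here), and deposited raw counts of 55416 genes in 71 mice. They also deposited log2-like vst values of 10508 genes in 70 mice, made with DESeq2 after low and non-coding genes were removed. Count rows without a symbol (0.00717% to 0.0709% of counts in D11 and HOCl mice) stayed in the library totals and in the counts given to edgeR. The gene lists were matched by symbol and so do not hold them.

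The vst values of D11 and HOCl mice were compared with limma 3.58.1 and the counts with edgeR 4.0.16 (quasi-likelihood, TMM factors) in R 4.3.3, at an FDR of at most 0.05 and a fold of at least 1.3. edgeR, limma and the summaries were tested on simulated data. CPM are counts scaled by the library total and its TMM factor. Single values per mouse were compared by two-sided permutation tests of 100000 resamples (scipy 1.17.1). Total counts of 11932855 to 15222080 per mouse set the precision, and low genes such as Vcan rest on few reads.

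Named were the genes that passed on vst values, the 10 higher and 10 lower with the largest fold among those that passed on counts, the 4 members of each of 37 lists with the smallest p plus Lgals3, App, Ccr3, Alas2 and Slc4a1, the 5 genes absent from the vst table with the smallest FDR, and members of the APP, cholesterol, methionine, oligosaccharyltransferase, proteasome and eosinophil lists. The mice, lists and genes were chosen with earlier results of these data known. Alternatives were other scalings, filters, tools (DESeq2 1.42.0), covariates, the replicate block and the omission of mice. Coordinates are GRCm39, and promoter windows GRCm38.p6.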

Additional observations from a re-analysis of the deposited data

Results flagged for a closer look

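D11 and E07 mice, both on HOCl and an antibody, differed in 480 genes on the vst values (limma), 449 higher and 31 lower in D11. This was listed because a direct test between groups under the same contrast with HOCl found a difference. The count was 64 without D11 mice 3 and 10 and 0 with all 6 groups in 1 fit.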

How the results depend on the processing

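Between D11 and HOCl mice the 6 genes on vst values became 0 with log2 of CPM of the total count plus 1 (835 at an unadjusted p under 0.05) or plus 0.5 (809), 12 above the lower quartile, 3 with the erythroid score as a covariate, 10 with edgeR on the same genes and mice, 129 without D11 mice 3 and 10 and 120 without HOCl mouse 7 as well. The 34 genes on counts became 3 with the total count alone, 168 with DESeq2, 52 with the erythroid covariate, and 253 and 236 without those mice. Leaving out 1 mouse gave 2 to 29 genes on vst values and 8 to 100 on counts. On vst values the count moved over 1.5 times without D11 mouse 1, 7 or 9 or HOCl mouse 6 (2 each), D11 mouse 3 (13) or 10 (29), or HOCl mouse 3 (13), 9 (14) or 11 (11). On counts it did so without D11 mouse 1 (8), 2 (15), 3 (69), 5 (20), 6 (15), 7 (12), 9 (9), 10 (100) or 11 (19), or HOCl mouse 2 (14), 4 (18), 5 (15), 6 (12), 8 (10) or 11 (65). D11 against E07 gave 0 with all 6 groups in 1 fit and 64 without D11 mice 3 and 10, D11 against BPR21 gave 5 with all 6 groups, and D11 against control gave 115 with the replicate block and 5 without D11 mice 3 and 10. The log2 total differed by −0.065 without HOCl mouse 8 (permutation p = 0.0476). The replicate numbers were not used as pairs in the main tests. Of 11 D11 and HOCl pairs 3 correlated over 0.1 (mean 0.049, against −0.0032 for other numbers), and 1 mouse correlated best with its own number. Against D06 mice the mean was 0.117, and 4 of 12 D11 mice correlated best with their own number. Whether mice of 1 number share a factor was not tested. The replicate block gave 1 gene on vst values and 15 on counts, and 557 for D11 against E07. The 6 and 34 genes that passed kept their direction in each alternative that tested them, while other named genes were not all followed, and the globin median turned from 0.50 to −0.13 without D11 mice 3 and 10. With the library total alone (CPM plus 1) the negative medians of the Fc receptor, Gal-3 partner, galectin, MHC class II, NK and cytotoxic, dendritic cell, platelet, TGF-beta and methionine cycle lists turned positive. The causes were not tested.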
